A study of Rattus norvegicus with 12 samples.

Results

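The miR-15 seed family, to which miR-16 and miR-195 belong, is a set of miRs that share the letters of their seed, and its members were taken by name from the TaqMan rodent miR cards of rat DRG. Of the 6 names looked for, 5 were among the 154 miRs of the table, namely mmu-miR-15a, mmu-miR-15b, mmu-miR-16, mmu-miR-195 and mmu-miR-497, while miR-322 was not. The table holds only miRs detected in every array, so absence from it does not mean that the card had no assay. The arrays were made from individual DRG of adult male Sprague-Dawley rats on Day 23 after surgery, with 4 arrays for each of the groups Sham, Sural-SNI and Tibial-SNI. The authors describe the DRG of the SNI arrays as ipsilateral to the injury. In Sham the sciatic nerve was exposed and no branch was cut, in Sural-SNI the common peroneal and tibial branches were cut so that the sural branch was spared, and in Tibial-SNI the common peroneal and sural branches were cut so that the tibial branch was spared. Each group held 2 arrays of L3-DRG, whose saphenous neurons were not injured by these surgeries, and 2 of L4-DRG, which holds injured neurons, numbered replicate 1 and replicate 2. The labels name no transgene and no agent that would set the groups apart. The labels do not say which rat gave which array, so a single rat may have given both the L3-DRG and the L4-DRG array of a group with the same number, and a whole DRG mixes neurons, glia, vessels and blood, so that fewer cells of a type and less miR per cell cannot be told apart.

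Mature miRs guide Argonaute proteins to messenger RNAs, mostly through pairing of the seed, the bases 2 to 8 from the 5′ end, with sites in the transcript, and the usual outcome is lower translation and stability of that transcript. MiRs with the same seed can therefore share many targets. The family is known for holding back cell cycle genes such as cyclins and for targeting Bcl2, an inhibitor of apoptosis, and it is widely expressed, with miR-16 abundant in blood cells as well. In the mouse, mature miR-16 is made from a pair of loci, at one of them together with miR-15a and at the other together with miR-15b, while miR-195 and miR-497 are made from a common locus.

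The sequences of the family in rat are shown because they define it and because they show how close the members are to each other. Mature sequences of 4 of the 5 members on the table were matched in RefSeq (rat build GRCr8). No rat miR-15a was found there, so miR-15a was kept by the name of its assay and its sequence in rat is not shown. The capitals mark bases 2 to 8, the seed, except that in the last line they mark the seed of a miR outside the family.
rno-miR-15b-5p: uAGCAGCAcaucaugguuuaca
rno-miR-16-5p: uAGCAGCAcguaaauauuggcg
rno-miR-195-5p: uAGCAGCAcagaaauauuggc
rno-miR-497-5p: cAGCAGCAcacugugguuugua
rno-miR-103-3p: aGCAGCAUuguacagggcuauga
The letters AGCAGCA stood at bases 2 to 8 in 5 of the 693 rat mature miRs of RefSeq, or 0.722%, and these 5 were the 4 printed members and miR-322. In miR-103-3p and miR-107-3p the same letters stood at bases 1 to 7, so that their seed is shifted by 1 base. MiR-16 and miR-195 were identical at 19 of 21 positions, the exceptions being G10A and U11G, with miR-16 first and positions counted from the 5′ end. MiR-15b was identical to miR-16 at 14 of 22 positions and to miR-497 at 16 of 22, whereas miR-16 and miR-497 shared 11 of 22. Mature miR-15b (chr2:155555197-155555218, plus strand) and miR-16 (chr2:155555343-155555364, plus strand) come from hairpins 51 bases apart, both within the span of Smc4 (chr2:155550262-155578695), which encodes a condensin subunit. Mature miR-497 (chr10:55450172-55450193, plus strand) and miR-195 (chr10:55450509-55450529, plus strand) come from hairpins 255 bases apart. The assays carry mouse names, and whether each would read its rat relatives as well, such as miR-16 and miR-195 by the same probe, was not tested.

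Each well measures a single miR by its Ct, the number of PCR cycles needed to bring the signal over a set threshold, so a lower Ct means more of the miR, and a difference of 1 cycle is a difference of 1 on the log2 scale. The mean Ct of all miRs ranged from 27.2 to 30.5 between arrays, with 29.9 over the 6 arrays of replicate 1 and 27.8 over the 6 of replicate 2. The 3 reference assays did not follow this shift alike, since the Ct of replicate 1 minus that of replicate 2 was −0.86 for MammU6, 1.52 for U87 and 3.94 for snoRNA135. Levels are given below as −ΔCt, which is the mean Ct of the 3 reference assays minus the Ct of the miR, and log2(fold change) is the −ΔCt of an SNI array minus that of its matched Sham array, the one with the same DRG level and number. Sural-SNI and Tibial-SNI values therefore share their Sham arrays. Because Ct depends on the efficiency of each assay, levels of different members are given as Ct and not as amounts.

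MiR-16 was read at the lowest Ct of the family and miR-15b at the highest. The mean Ct over the 12 arrays was 22.7 ± 0.951 (SD, n = 12) for miR-16, which was the 3rd lowest of the 154 miRs. It was 27.0 ± 1.63 for miR-195, 30.1 ± 2.89 for miR-15a, 30.8 ± 2.42 for miR-497 and 31.7 ± 1.35 for miR-15b. The order of miR-16 before miR-195 before the other members held in every array, as the smallest Ct difference was 3.08 for miR-195 minus miR-16 and 1.09 for miR-15a minus miR-195. MiR-15a, miR-497 and miR-15b were not separated in this way, because the Ct difference of miR-15b minus miR-15a went from −3.30 to 3.60 and that of miR-15b minus miR-497 from −0.94 to 3.33. Only 2 of the 60 Ct values of the members were 35 or more, that of miR-15a in L3-DRG of Sham replicate 1 (35.3) and that of miR-497 in L4-DRG of Tibial-SNI replicate 1 (35.3).

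**Figure D1:**
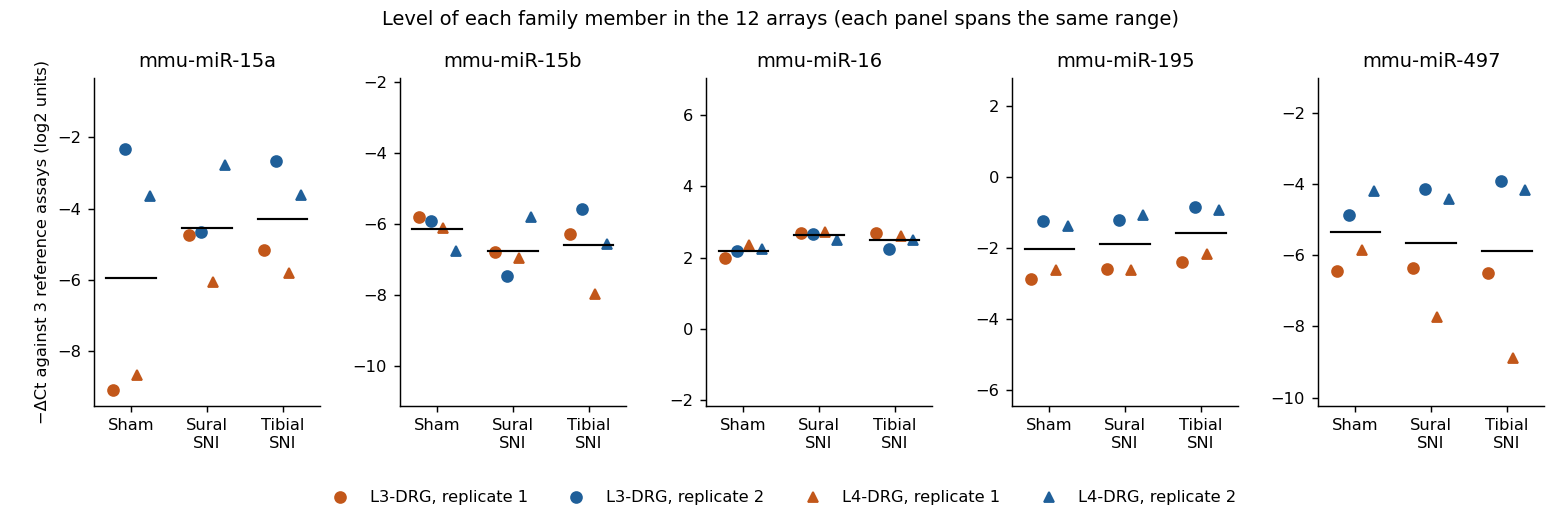
Level of each family member in the 12 arrays as −ΔCt (log2 units, higher means more), with one point per array, circles for L3-DRG, triangles for L4-DRG, orange for replicate 1, blue for replicate 2 and a bar for the mean of the 4 arrays of a group. Every panel spans the same range, so that miR-16 (1.98 to 2.72) can be seen to vary little, while miR-15a goes from −9.11 to −2.33. MiR-15a, miR-195 and miR-497 separate by replicate number.

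The members differed widely in how much they varied over the arrays. On the −ΔCt scale miR-16 had an SD of 0.25 over the 12 arrays, the 2nd smallest of the 154 miRs, against a median of 0.74 over all miRs. The SD was 0.73 for miR-15b and 0.77 for miR-195, close to that median. It was 1.60 for miR-497 and 2.21 for miR-15a, ranked 138th and 148th from the steadiest. The rank of miR-16 depended on the reference, since its SD was 0.26 against U87 alone but 1.23 against MammU6 alone and 1.37 against snoRNA135 alone. Its own Ct shift between the replicate numbers was 1.41 ± 0.509 (SD, n = 6 pairs), near the 1.53 of the mean of the 3 references. A measure free of the references is the SD of the Ct difference of a miR to each other miR, averaged over all others, and by this miR-16 was 24th of 154, miR-195 38th, miR-15b 88th, miR-497 133rd and miR-15a 146th.

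**Figure D2:**
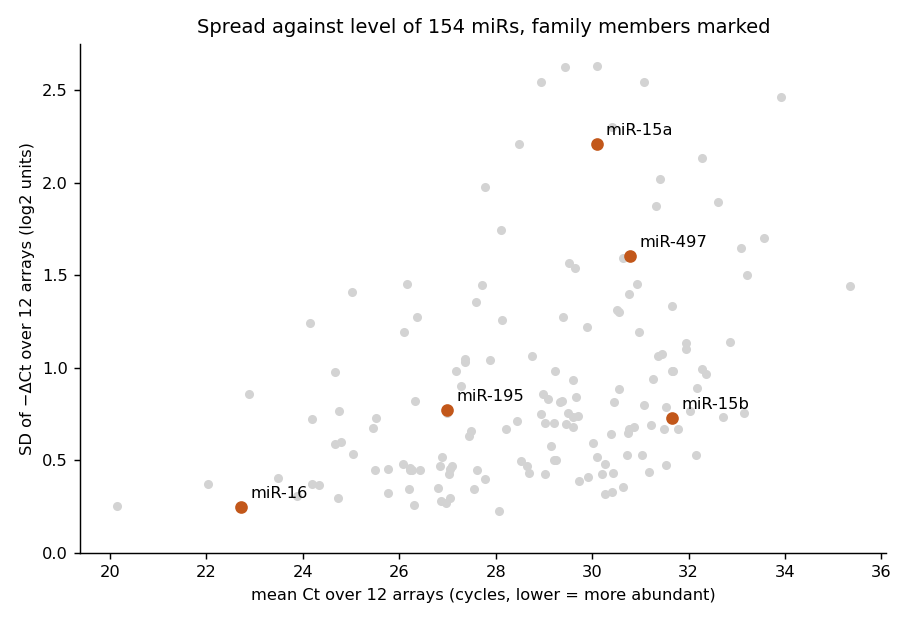
SD of −ΔCt over the 12 arrays (log2 units) against mean Ct (cycles) for 154 miRs, with the 5 family members in orange and labelled and the others in grey. MiR-16 lies at a mean Ct of 22.7 and an SD of 0.25, at the lower left, while miR-15a (SD 2.21) and miR-497 (SD 1.60) lie well above the median of 0.74.

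The shift between the replicate numbers was unequal within the family. The Ct of replicate 1 exceeded that of replicate 2 in all 6 pairs of arrays for every member. The mean shift was 1.41 for miR-16, 1.83 for miR-15b, 2.96 for miR-195, 4.20 for miR-497 and 4.84 for miR-15a, with 2.05 as the median over all miRs. Comparisons between groups that do not use the number therefore carry this spread for miR-195, miR-497 and miR-15a above all. The log2(fold change) sets each SNI array against a Sham array of the same number, and still its mean over the 4 SNI arrays of replicate 1 and of replicate 2 was 3.45 and −0.43 for miR-15a and −1.22 and 0.38 for miR-497.

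Against Sham, the difference that rested on the most similar arrays was that of miR-16. Its −ΔCt was 1.98 and 2.18 in the L3-DRG of Sham (replicates 1 and 2) and 2.35 and 2.23 in the L4-DRG. In Sural-SNI it was 2.69 and 2.67 in L3-DRG and 2.72 and 2.51 in L4-DRG. In Tibial-SNI it was 2.70 and 2.24 in L3-DRG and 2.60 and 2.48 in L4-DRG. All 4 Sural-SNI arrays lay above all 4 Sham arrays, which was so in either direction for 1.95% of all miRs (3 of 154), whereas Tibial-SNI overlapped Sham, as it did for every member (1.3% of all miRs did not overlap). Sural-SNI minus Sham was 0.46 (SE 0.24, 95% confidence interval −0.08 to 1.00) and Tibial-SNI minus Sham was 0.32 (SE 0.24, interval −0.22 to 0.86), beside medians of 0.15 and 0.23 over all miRs. The limma adjusted p was 1.00 in the former, where miR-16 had the 3rd smallest p of all miRs, and 0.997 in the latter, so neither passed the test. When each array was referred to the mean of all its miRs instead, the 2 differences were 0.31 and 0.08.

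MiR-16 is also a miR of red blood cells, and of the 3 red blood cell miRs looked for only miR-486 was on the table. MiR-451 and miR-144 were not on it. The −ΔCt of miR-486 lay between −2.77 and −2.001 in the Sham arrays, between −3.20 and −0.69 in the Sural-SNI arrays and between −3.32 and −0.71 in the Tibial-SNI arrays. Its highest values were in the L4-DRG of replicate 1 of both SNI groups, and its lowest in the L4-DRG of replicate 2 of both (−0.69 and −0.71 against −3.20 and −3.32), while miR-16 was at 2.72 and 2.60 in the former and at 2.51 and 2.48 in the latter. The rats had been perfused before the DRG were taken, which removes blood, and the part of remaining blood in the levels of miR-16 was not tested.

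MiR-195 had the most even log2(fold change) in Tibial-SNI. It was 0.48 and 0.40 in L3-DRG (replicates 1 and 2) and 0.45 and 0.47 in L4-DRG, with a mean of 0.45 ± 0.03 (SD, n = 4). In Sural-SNI it was 0.28 and 0.02 in L3-DRG and −0.00058 and 0.31 in L4-DRG, with a mean of 0.15 ± 0.16 (SD, n = 4). All 4 Tibial-SNI values lay above all 4 Sural-SNI values, as for 1.3% of all miRs in either direction (2 of 154). Taken within each DRG level and number, Tibial-SNI exceeded Sural-SNI by 0.20 and 0.38 in L3-DRG and by 0.45 and 0.16 in L4-DRG. All 4 differences were above 0, as they must be when the groups do not overlap.

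In limma the difference of miR-195 between Tibial-SNI and Sural-SNI was 0.30 (SE 0.23, interval −0.23 to 0.82) with an adjusted p of 0.995, and it did not pass. With MammU6 alone as the reference it was 0.14, and with all miRs averaged as the reference 0.22. One-tailed p-values here are the two-sided p halved, in whichever direction the data took, so no direction was set beforehand. That of miR-195 was over 0.09, the threshold used for these arrays, in limma. It was under 0.09 in 5 of the 28 alternatives with such a p, the replicate block being one of them. In these 5, from 11.04% to 22.1% of all miRs were under it as well. The adjusted p of miR-195 ranged from 0.466 to 1 over the 29 alternatives run. The exact two-sided permutation test gave 0.0286, the smallest p that 4 arrays against 4 can give. This p follows from the lack of overlap between the SNI groups and adds no further support. After adjustment over all miRs, 0 of 154 passed that permutation test at 0.05. This was set by the design, since a large share of all miRs would have to reach the smallest p of 0.0286 before any could pass. Against Sham, Tibial-SNI was 0.45 higher (SE 0.59) and Sural-SNI 0.15 (SE 0.59), with limma adjusted p of 0.997 and 1.00, and with all miRs averaged as the reference Tibial-SNI was 0.21 higher. Those wide errors include the shift between the replicate numbers.

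**Figure D3:**
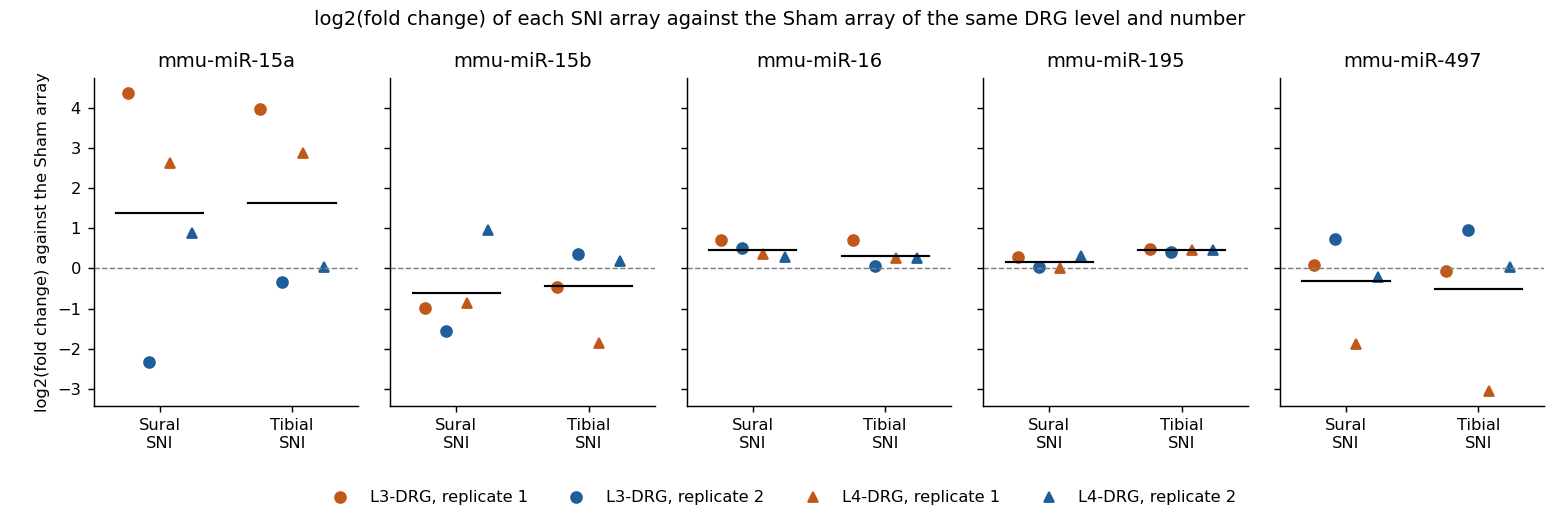
log2(fold change) of each SNI array against its matched Sham array for the 5 family members, with circles for L3-DRG, triangles for L4-DRG, orange for replicate 1, blue for replicate 2, a bar for the mean of 4 arrays and a dashed line at 0. MiR-16 is above 0 in all arrays of each SNI group and miR-195 lies between 0.40 and 0.48 in Tibial-SNI, whereas miR-15a spreads from −2.32 to 4.37 with its orange points at the top.

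By sign, miR-16 was above 0 in all 4 Sural-SNI arrays, as were 10.4% of all miRs (16 of 154), and was the only member to be so. MiR-16 and miR-195 were above 0 in all 4 Tibial-SNI arrays, as were 18.2% of all miRs (28 of 154). No member was below 0 in all 4 arrays of either group.

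MiR-15a had the largest fold changes of the family, and they went with the replicate number. In replicate 1 its log2(fold change) was 4.37 (L3-DRG) and 2.61 (L4-DRG) in Sural-SNI and 3.96 and 2.88 in Tibial-SNI. In replicate 2 it was −2.32 (L3-DRG) and 0.89 (L4-DRG) in Sural-SNI and −0.33 and 0.04 in Tibial-SNI. The 4 values of replicate 1 all lay above the 4 of replicate 2. Behind this stood the Sham arrays of replicate 1, in which the Ct of miR-15a was 35.3 in L3-DRG and 34.0 in L4-DRG, against 30.6 to 32.2 in the 4 SNI arrays of that number and 27.1 and 27.8 in the Sham arrays of replicate 2. Over both numbers, Sural-SNI minus Sham was 1.39 (SE 1.53) and Tibial-SNI minus Sham 1.63 (SE 1.53), with limma adjusted p of 1.00 and 0.997. Without the L3-DRG array of Sham replicate 1 they were 0.14 and 0.39, and without that of Sham replicate 2 they were 2.68 and 2.93. Within replicate 1 alone the differences were 3.49 and 3.42 (SE 0.53 each), with limma adjusted p of 0.178 and 0.196, and within replicate 2 alone −0.72 and −0.15 (SE 0.81 each), with 0.988 and 0.955. Whether the response differed between the replicate numbers was not tested.

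MiR-15b is made beside miR-16. Its log2(fold change) in Sural-SNI was −0.98 and −1.55 in L3-DRG (replicates 1 and 2) and −0.85 and 0.95 in L4-DRG, and in Tibial-SNI −0.47 and 0.36 in L3-DRG and −1.85 and 0.18 in L4-DRG. It was below Sham in all 4 SNI arrays of replicate 1, and in replicate 2 it was below Sham in only the L3-DRG of Sural-SNI. Sural-SNI minus Sham was −0.61 (SE 0.52, interval −1.76 to 0.55) and Tibial-SNI minus Sham −0.44 (SE 0.52, interval −1.60 to 0.71), and neither passed the test (limma adjusted p of 1.00 and 0.997).

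MiR-497, which is made beside miR-195, stood out in the L4-DRG of replicate 1. Its log2(fold change) in Sural-SNI was 0.09 and 0.74 in L3-DRG and −1.87 and −0.22 in L4-DRG. In Tibial-SNI it was −0.06 and 0.96 in L3-DRG and −3.04 and 0.04 in L4-DRG. The 2 lowest values were thus both of L4-DRG replicate 1, which share a Sham array, and the others lay between −0.22 and 0.96. The differences from Sham were −0.32 (SE 1.17) in Sural-SNI and −0.52 (SE 1.17) in Tibial-SNI, with limma adjusted p of 1.00 and 0.997. Without the L4-DRG array of Tibial-SNI replicate 1 the Tibial-SNI difference was 0.51. That array also held the highest level of the skeletal muscle miRs looked for. The summed level of the 3 found on the table (mmu-miR-1, miR-133a and miR-133b, of 4 looked for) was 4.20 on the log2 scale there, against 0.45 to 1.63 in Sham. That sum was nearly all miR-133a (4.17 in that array), and rno-miR-1, also on the table, was not in the list. The part of muscle RNA in the value of miR-497 was not tested.

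Between Tibial-SNI and Sural-SNI no member passed the limma test at an adjusted p under 0.05, and 0.649% of all miRs (1 of 154) did. Beside the 0.30 of miR-195, Tibial-SNI minus Sural-SNI was 0.25 for miR-15a (SE 1.50), 0.16 for miR-15b (SE 0.65), −0.14 for miR-16 (SE 0.26) and −0.21 for miR-497 (SE 0.89), each with an adjusted p of 0.995. No member had a limma one-tailed p (the two-sided p halved, in either direction) under 0.09, against 10.4% of all miRs. The intervals left room for differences of more than 1 on the log2 scale in either direction for miR-15a, miR-15b and miR-497, but not for miR-16 (−0.74 to 0.45) and miR-195 (−0.23 to 0.82). The median over the members was 0.16, beside 0.10 over all miRs.

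In the comparisons with Sham 0% of all miRs passed at an adjusted p under 0.05 in either SNI group, and no member did. The differences of miR-15a, miR-16 and miR-195 were above 0 and those of miR-15b and miR-497 below 0, that is 3 of 5 above 0 in each comparison, beside 68.8% of all miRs in Sural-SNI and 81.2% in Tibial-SNI. The median over the members was 0.15 for Sural-SNI and 0.32 for Tibial-SNI, beside 0.15 and 0.23 over all miRs. At an unadjusted limma p under 0.05 the count was 0 of all miRs in Sural-SNI and 1 of all miRs in Tibial-SNI, and no member was below it in any of the 5 comparisons. When level and replicate number were blocked it was 10 of all miRs in Sural-SNI, miR-16 among them, and 15 in Tibial-SNI, miR-195 among them, with limma adjusted p of 0.703 and 0.410 for these 2 members.

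**Figure D4:**
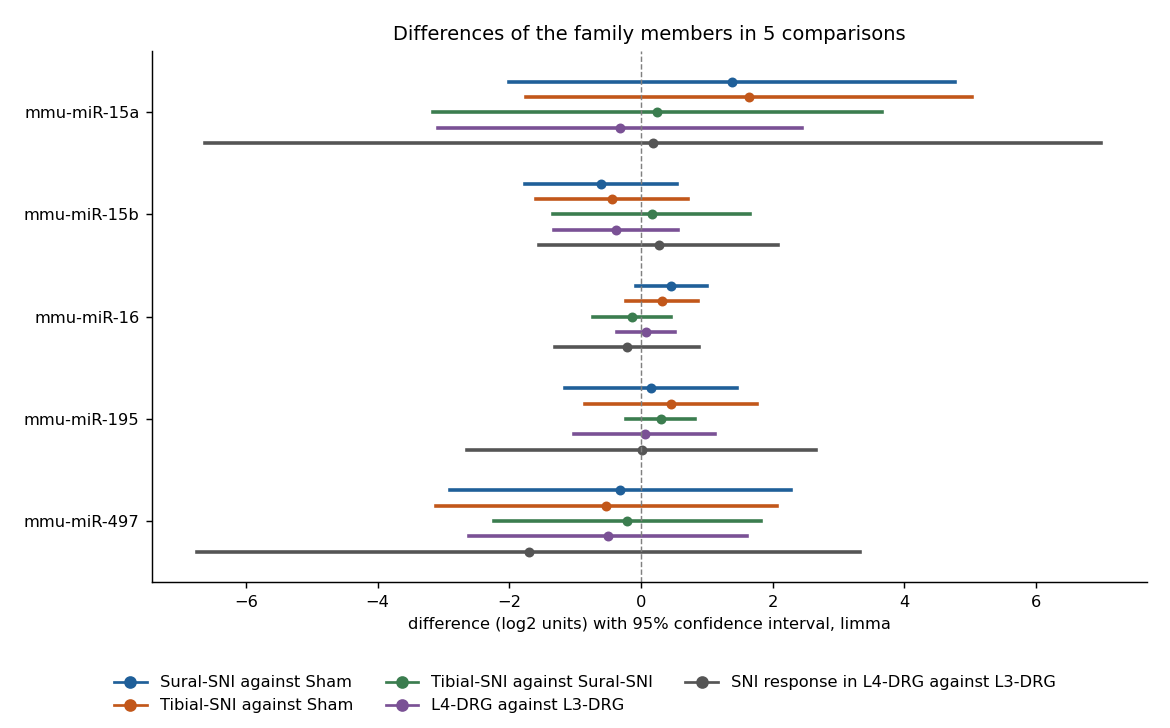
Difference of each family member in the 5 comparisons (log2 units), with a point for the limma estimate and a line for its 95% confidence interval. All lines cross 0, those of miR-16 are the shortest except between the SNI groups, where that of miR-195 is shorter, and those of miR-15a and miR-497 are several log2 units long.

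The DRG levels were compared because the authors found injured neurons in L4-DRG, and not in L3-DRG, after either SNI. L4-DRG minus L3-DRG over the 3 groups was 0.07 for miR-16 (SE 0.20), 0.06 for miR-195 (SE 0.48), −0.32 for miR-15a (SE 1.25), −0.39 for miR-15b (SE 0.43) and −0.51 for miR-497 (SE 0.95). The limma adjusted p was 0.987 for each, and 0% of all miRs passed (3 had an unadjusted limma p under 0.05). The difference between the levels in the response to SNI, fitted as an interaction, was −1.71 for miR-497 (SE 2.19), with a mean log2(fold change) of 0.43 ± 0.49 in L3-DRG and −1.27 ± 1.45 in L4-DRG (SD, n = 4 each). It was 0.18 for miR-15a (SE 2.96), 0.27 for miR-15b (SE 0.79), −0.21 for miR-16 (SE 0.47) and 0.01 for miR-195 (SE 1.15). None passed (limma adjusted p of 0.995), and 0% of all miRs did (2 had an unadjusted limma p under 0.05). The median over the members was 0.01, beside −0.43 over all miRs.

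Differences between the Ct values of 2 members in the same array do not depend on the references. For miR-497 and miR-195 they show whether members made side by side kept their ratio. For pairs with miR-16 they cannot show this, because in the mouse mature miR-16 is made from a pair of loci. MiR-15b minus miR-16 was 8.33 ± 0.515 in Sham, 9.40 ± 0.781 in Sural-SNI and 9.10 ± 1.13 in Tibial-SNI (SD, n = 4 each). In Sham it was 7.78 and 8.10 in L3-DRG and 8.46 and 8.99 in L4-DRG, and in Sural-SNI 9.48 and 10.1 in L3-DRG and 9.68 and 8.31 in L4-DRG, so the groups overlapped in a single Sural-SNI array. The difference of 1.07 between Sural-SNI and Sham had an exact permutation p of 0.0857, and 0.707 after adjustment over the 9 tests of member pairs. MiR-15a minus miR-16 was 8.12 ± 3.43 in Sham, 7.20 ± 1.45 in Sural-SNI and 6.81 ± 1.61 in Tibial-SNI. MiR-497 minus miR-195 was 3.32 ± 0.378 in Sham, 3.78 ± 0.947 in Sural-SNI and 4.29 ± 1.69 in Tibial-SNI, with its 2 largest values, 6.73 and 5.11, in the L4-DRG of replicate 1 of Tibial-SNI and Sural-SNI. None of the 9 exact permutation tests passed (adjusted p from 0.707 to 0.771). The smallest p of such a test is 0.0286, so a change in a single pair could not have passed after adjustment over the 9 tests. The outcome therefore does not show that the ratios were kept.

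MiR-195 and miR-16, the closest pair in sequence and made from different loci, differed by 5.04 cycles ± 0.228 in replicate 1 and by 3.50 ± 0.272 in replicate 2 (SD, n = 6 each). The values of replicate 1 lay between 4.77 and 5.33 and those of replicate 2 between 3.08 and 3.89, so the 2 numbers did not overlap. Within a number the pair was thus steady over all groups and levels, while between the numbers the offset was larger than any difference between the groups. MiR-497 minus miR-195 was likewise steady in replicate 2 (SD 0.300) and not in replicate 1 (SD 1.30).

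**Figure D5:**
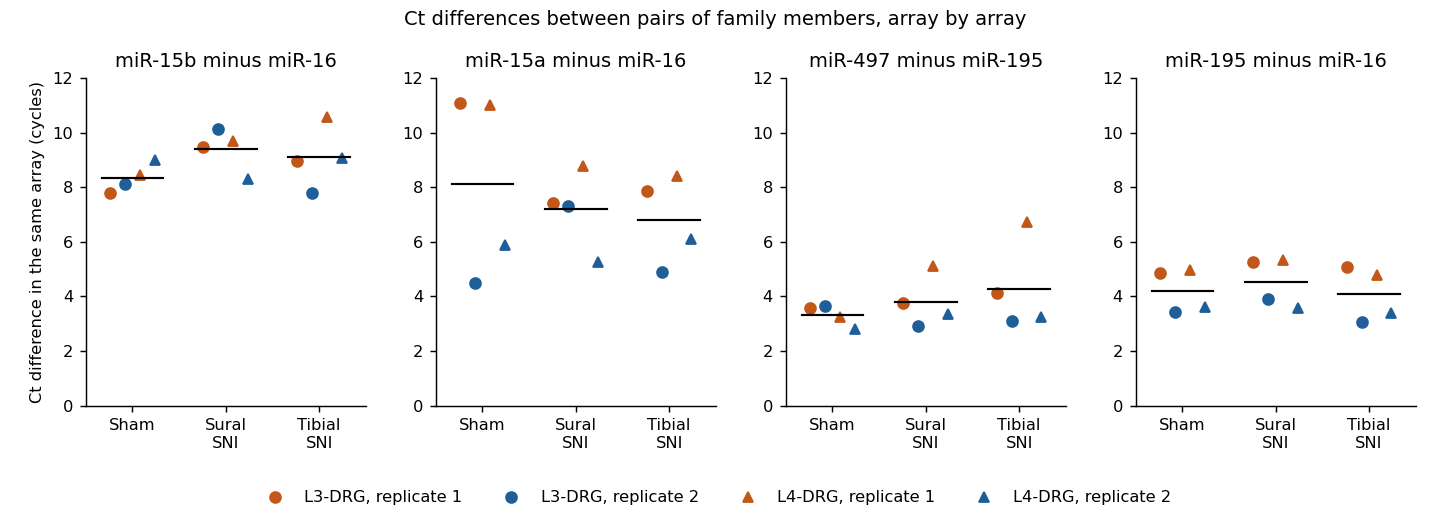
Ct difference between 2 family members in the same array (cycles) for 4 pairs, with one point per array, circles for L3-DRG, triangles for L4-DRG, orange for replicate 1, blue for replicate 2 and a bar for the mean of 4 arrays. In the right panel the orange points (4.77 to 5.33) lie above the blue points (3.08 to 3.89) in all 3 groups, and in the panel of miR-497 minus miR-195 the orange triangles of the SNI groups (5.11 and 6.73) stand above the rest.

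As a measure of likeness, the SD of the Ct difference over the 12 arrays was 0.841 for miR-16 and miR-195, 0.898 for miR-15b and miR-16, 0.978 for miR-15b and miR-195 and 1.11 for miR-195 and miR-497, with a median of 1.10 over all 11781 pairs of miRs. The 6 remaining pairs of members had an SD from 1.42 to 2.26. Nearest to the mean Ct of the members among all other miRs were miR-335-3p (SD 0.387), miR-340-3p (0.417), miR-152 (0.424), rno-miR-450a (0.424) and miR-30a (0.426). For miR-16 alone the nearest was miR-409-3p (0.187) and for miR-195 alone miR-379 (0.278), both closer than any member. All of these SDs are over the same 12 arrays and include the shift between the replicate numbers.

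Of the 11 assay names looked for among the miRs of the miR-322 cluster and the miRs with the seed shifted by 1 base, 5 were on the table, namely mmu-miR-351, rno-miR-351, rno-miR-450a, mmu-miR-542-5p and mmu-miR-103. None of these passed the limma test in any of the 5 comparisons. Mmu-miR-103, with the shifted seed, was 0.34 above Sham in Sural-SNI (SE 0.48) and 0.70 in Tibial-SNI (SE 0.48), and its Ct shift between the replicate numbers was 0.65, smaller than that of any member. Rno-miR-450a was 0.40 (SE 0.56) and 0.20 (SE 0.56) above Sham.

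Of the 5 miRs of sensory neurons looked for, 3 were on the table (miR-182, miR-183 and miR-9) and miR-96 and miR-124 were not. The summed level of these 3 (log2 scale) was between 2.05 and 2.22 in Sham. It was between 1.43 and 2.19 in Sural-SNI and between 1.59 and 2.74 in Tibial-SNI. Their presence in every array follows from the detection filter of the table, so it is no check of the tissue. The sum was mostly miR-182, which was 2.02 in the L3-DRG of Sham replicate 1, against −2.44 for miR-183 and −1.60 for miR-9. The 4 of 5 leukocyte miRs on the table summed to 1.02 to 1.68 in Sham, 1.23 to 1.78 in Sural-SNI and 1.06 to 2.04 in Tibial-SNI. The 3 miRs of vascular smooth muscle and endothelium summed to 2.95 to 3.38, 2.73 to 3.30 and 3.10 to 3.82 in the same order. These summed ranges overlapped between the groups. The vascular sum follows miR-126-3p, the most abundant of its 3 miRs. MiR-143 alone lay from −3.06 to −2.22 in Tibial-SNI and from −4.02 to −3.13 in Sham, without overlap, as for 1.3% of all miRs. MiR-145 and miR-126-3p overlapped. The leukocyte miRs differed, as in L3-DRG of Sham miR-150 was 1.50 and 0.07 (replicates 1 and 2) and miR-223 −3.51 and −0.23. The part of these miRs in the levels of the family was not tested.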

How the data were processed

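Sample labels gave the group, level and replicate number of every array. The authors ran the cards for 40 cycles, kept miRs detected in every array, and deposited Ct values, which are on a log2 scale and not normalized, together with a linear fold change (a ratio) of each SNI array, whose 4 Sham columns were empty and not used. From Ct, −ΔCt was computed against MammU6 (4 wells averaged), snoRNA135 and U87, and with the Sham array of the same level and number 98.9% of the deposited fold changes were recovered within 0.01 on the log2 scale. Ct holds no molecule counts, so the number of arrays sets the precision, and since nothing ties arrays to separate rats, p-values measure the spread between arrays.

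Tests used limma 3.58.1 in R 4.3.3 (lmFit, eBayes), two-sided, with Benjamini-Hochberg adjustment over 154 miRs and a threshold of 0.05. Tibial-SNI and Sural-SNI were compared on 8 log2(fold change) values, each SNI group with Sham on −ΔCt of 12 arrays adjusted for DRG level, and the levels with the group as a covariate. The interaction of level and SNI was fitted over the same 12 arrays. Pairs of members were compared by exact permutation tests. The scripts were tested on simulated data, and figures and descriptions used Python 3.11.15 with matplotlib 3.10.9. Arrays of the same level and number deviated from their group means together (r from 0.46 to 0.81 over 12 pairs, against −0.79 to −0.51 over 24 pairs of different numbers). The numbers were therefore taken to pair the arrays in the log2(fold change), the replicate block and the sign-flip tests. The main limma fits held no further term for the number, so their SEs and p-values are not those of paired tests.

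Alternatives were other references, limits on Ct, a block or a correlation by replicate number, a variance trend, other Sham terms and tests, the deposited fold changes, and leaving out each array. Fits within a replicate number were chosen after seeing the data. The text names the members, the references, cluster neighbours and miRs with a shifted seed, and the 5 nearest other miRs, and beyond this rule the single nearest miR of miR-16 and of miR-195, the marker miRs and Smc4. The members, the lists of neighbours and cell type miRs, and the tests were chosen with earlier results of these data known.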

Additional observations from a re-analysis of the deposited data

How the results depend on the processing

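No difference of a member in the 5 comparisons passed an adjusted p of 0.05 under any alternative run, the lowest being the 0.178 of miR-15a in Sural-SNI against Sham within replicate 1. At the one-tailed threshold of 0.09 between the SNI groups (two-sided p halved) limma put 0 of 5 members past it, beside 10.4% of all miRs. The methods' one-tailed unpaired test put 1 of 5 (miR-195), beside 11.04% of all miRs. The moderated p of miR-195 also passed with U87 alone (0.0871), the DRG level as a covariate (0.0848), a correlation within group and number (0.0822) and the replicate block (0.0785). In the same order, 14.3%, 15.6%, 15.6% and 22.1% of all miRs passed as well. The replicate numbers pair the arrays, and the main fits held no term for them. At an adjusted p of 0.05 the block changed no call of a member. With it the SE of miR-195 against Sham fell to 0.17. The smallest limma adjusted p of a member was then 0.784 between the SNI groups, 0.703 (miR-16) for Sural-SNI and 0.410 (miR-195) for Tibial-SNI against Sham. It was 0.842 between the levels and 0.465 for the interaction. In exact sign-flip tests of the Ct differences of member pairs the adjusted p ranged from 0.750 to 0.875. With 4 pairs of arrays such a test cannot give a p under 0.05, so it could not have passed.

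Directions turned as follows, in log2 units, and the cause was not tested. Within replicate 1, Tibial-SNI minus Sural-SNI was −0.073 for miR-15a and −0.24 for miR-15b. Within replicate 2, it was 0.24 for miR-497, Sural-SNI minus Sham was −0.72 for miR-15a and 0.26 for miR-497, Tibial-SNI minus Sham was −0.15 for miR-15a, 0.27 for miR-15b and 0.50 for miR-497, and L4-DRG minus L3-DRG was −0.031 for miR-195 and 0.049 for miR-497. With all miRs averaged as the reference, Sural-SNI minus Sham was −0.0016 for miR-195 and the interaction was 0.19 for miR-16. With snoRNA135 alone, L4-DRG minus L3-DRG was −0.10 for miR-16 and −0.12 for miR-195, and the interaction of miR-195 was −0.15 with MammU6 alone and −0.021 with U87 alone.

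Leaving out each array in turn, Tibial-SNI minus Sural-SNI ranged from −0.99 to 1.24 for miR-15a, from −0.42 to 0.68 for miR-15b and from −0.73 to 0.63 for miR-497. Sural-SNI minus Sham ranged from −0.15 to 0.46 for miR-195 and from −0.87 to 0.36 for miR-497, and Tibial-SNI minus Sham from −1.26 to 0.51 for miR-497. With no turn of direction, Sural-SNI minus Sham ranged from 0.14 to 2.68 for miR-15a and from −1.04 to −0.27 for miR-15b, and Tibial-SNI minus Sham from 0.39 to 2.93 for miR-15a, from −0.76 to −0.0063 for miR-15b and from 0.15 to 0.75 for miR-195. L4-DRG minus L3-DRG ranged from −1.15 to 0.54 for miR-15a, from −0.15 to 0.26 for miR-195 and from −0.996 to 0.19 for miR-497. The interaction ranged from −3.21 to 3.57 for miR-15a, from −0.076 to 0.61 for miR-15b and from −0.80 to 0.82 for miR-195. For the Ct differences of member pairs (the first minus the second), Tibial-SNI minus Sural-SNI ranged from −1.03 to 0.25 for miR-15a and miR-16, from −0.79 to 0.13 for miR-15b and miR-16 and from −0.95 to 0.31 for miR-195 and miR-497, and Sural-SNI minus Sham from −2.13 to 0.062 for miR-15a and miR-16. For miR-16 no such turn was seen when an array was left out, its values being 0.40 to 0.53 for Sural-SNI and 0.23 to 0.41 for Tibial-SNI against Sham.

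A Ct of at most 35 in all arrays kept 3 of the 5 members and one of at most 32 kept 2, so the limits say nothing of the others. The interaction could not be fitted within a replicate number, which leaves 1 array per group and level.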
